A study of Mus musculus with 4 samples.

Results

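Collagen transcripts were followed in cells sorted from the skin of mouse pups after induction of the microRNA miR-203. The group comprised every gene of the array with a collagen alpha chain symbol, apart from the hemidesmosomal chain gene Col17a1, and only probe sets annotated to a single gene were used. This gave 41 genes, measured by 81 probe sets, among 18193 named genes. Each gene was represented by its probe set with the highest mean over the 4 arrays, and no difference between the groups entered the choice. The genes were divided by the assembly their protein forms into 11 fibrillar chains, 9 chains of the basement membrane zone and 21 others.

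Collagens are extracellular proteins built from alpha chains wound into a triple helix. Fibrillar types I, III and V are made mainly by fibroblasts of the dermis. Keratinocytes contribute to the sheet below them, which holds the type IV network, type XVIII and the anchoring fibrils of type VII. Vessels, nerves, muscle and the mesenchyme of the hair follicle lay down type IV and type VI collagens as well. Bulk RNA of a sorted population therefore sums what the sorted cells make and what any other captured cells bring, and fewer cells of a type and less RNA per cell cannot be told apart in it.

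The induced animals carried K14-rtTA, TRE-miR-203 and K14-H2BGFP, and their control littermates, labelled WT, carried TRE-miR-203 and K14-H2BGFP without the activator. All were FVB pups taken at postnatal day 4, 24 h after doxycycline, and the cells were sorted by flow cytometry (the gate was not given in these sources). The keratin 14 promoter is active in basal keratinocytes and the outer root sheath, so induction was directed to K14-expressing cells. Since the groups also differ in rtTA, effects of the activator and of miR-203 cannot be told apart. Each group had 2 arrays, called biological replicates by the labels, which do not state whether each came from a single animal. So few arrays limit the precision of all values.

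The induced product that acts on messenger RNAs is shown here for reference, from RefSeq (GRCm38.p6, chr12:112130927-112130948, plus strand), with the seed in capitals (bases 2 to 8). The probe sets analysed do not measure it.
mmu-miR-203-3p: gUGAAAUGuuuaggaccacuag

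The deposited values are log2 RMA values, and probe sets with a mean below 4.17, the 40th percentile of all probe sets, were left out of the tests. Array medians were 4.74 to 4.79. Krt5 and Krt14, the basal keratins, had values of 13.6 to 14.1 on all 4 arrays. Induced replicate 1 stood apart in sex-linked transcripts, with Xist at 5.86 against 10.6, 10.8 and 11.2 on the other arrays and the Y-linked Eif2s3y at 9.38 against 2.82, 2.52 and 2.72. Sex is therefore unbalanced between the groups, and collagen differences that rest on this array are given with and without it. A gap between the induced arrays involves this array by its nature.

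Of the 41 genes 28 passed the filter, namely 7 of 11 fibrillar, 7 of 9 basement membrane and 14 of 21 other genes. Col1a1, the major chain of type I collagen, had values of 3.04 and 3.32 in the controls against 3.11 and 3.08 in the induced arrays, below the filter level on every array. The other fibrillar genes below it were Col5a3, Col11a1 and Col24a1. In the basement membrane class these were Col4a3 and Col4a4, chains known from the kidney glomerulus. Just inside the filter lay Col19a1 (mean 4.36) and Col10a1 (4.38), and just outside lay Col6a4 (4.13) and Col4a3 (4.07). The filter used the mean over all 4 arrays, so a gene such as Col14a1, at 3.81 on induced replicate 1, passed through the arrays where it was brighter.

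Between the induced and control groups, 0 of the 28 collagen genes passed an adjusted p under 0.05 in limma, where the background over 13489 genes was also 0 (0%). The lowest adjusted p among the collagens was 0.325, for Col16a1, against 0.158 in the whole table. At an unadjusted p under 0.05 there were 4 of the 28, against 9.62% of all genes, and all 4 were on the lower side, where 5.23% of all genes lay. The groups did not overlap for 10 of the 28 (35.7%), against 39.4% of all genes. Of these 5 were lower (background 19.3%) and 5 higher (background 20.1%), so that neither count stood out from the table. With limma's trended and robust variance prior, 81 genes of the table were called, and again 0 collagens. The largest collagen difference in either direction was that of Col8a1, at 1.38-fold lower. The median difference of the 28 genes was 0.03, against -0.00 for all genes tested.

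**Figure D1:**
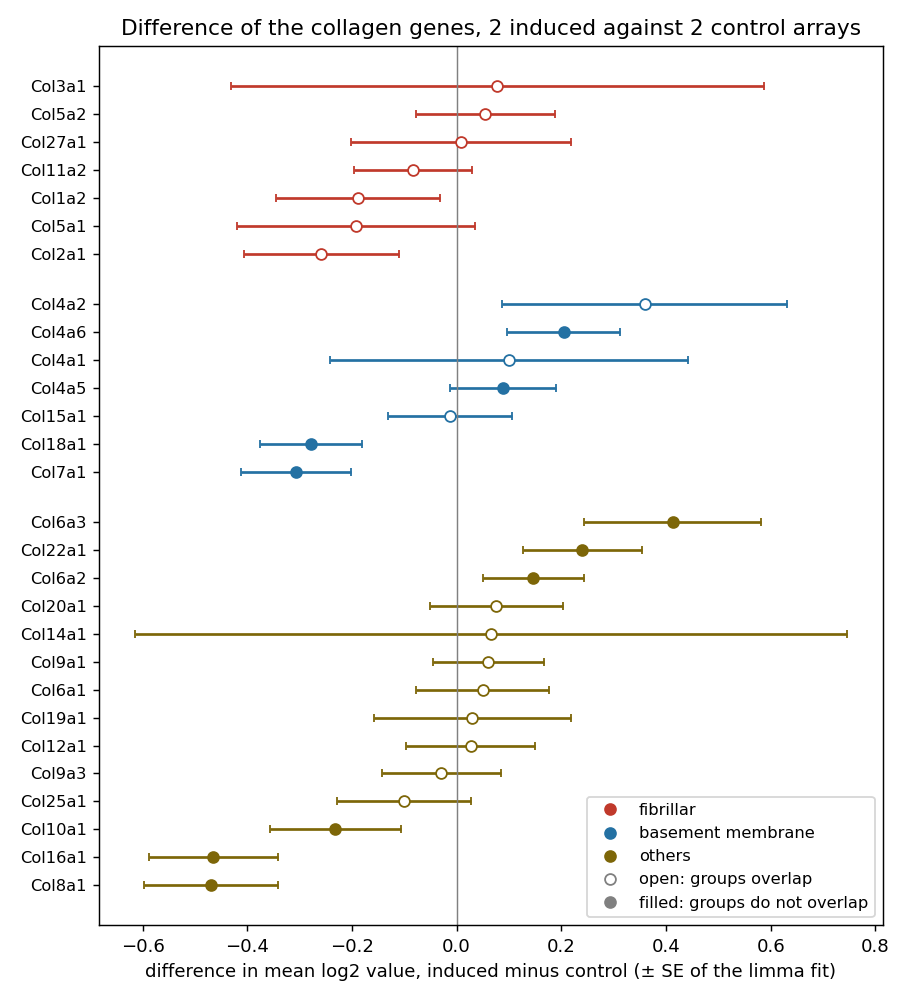
Difference in mean log2 value (x axis, induced minus control, n = 2 and 2, bars are the SE of the limma fit) for the 28 collagen genes that passed the filter, grouped by class. Filled points mark genes whose groups do not overlap; Col8a1 and Col16a1 lie lowest at -0.47 and -0.46, Col6a3 lies highest at 0.41, and all 7 fibrillar genes have overlapping groups.

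The 4 collagens with the lowest unadjusted p-values were Col7a1, Col18a1, Col16a1 and Col8a1, and all lay lower on both induced arrays than on both controls. Col7a1 encodes the chain of the anchoring fibrils that tie the epidermis to the dermis. Its log2 values were 7.79 and 7.78 in the controls against 7.56 and 7.40 in the induced arrays. The difference was -0.31 ± 0.11 (SE), or 1.24-fold lower, with an adjusted p of 0.427 in limma. Col18a1 encodes the basement membrane collagen whose C-terminal fragment is endostatin. Its values were 7.58 and 7.53 in the controls against 7.33 and 7.24 in the induced arrays, a difference of -0.28 ± 0.10 (1.21-fold lower, limma adjusted p = 0.436). A second probe set of Col18a1 had the same direction at -0.15 ± 0.10, with groups that did not overlap. In both genes the gap between the groups exceeded the gap between replicates, although neither passed the test.

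Col16a1 encodes a collagen that associates with fibrils and is found near the dermal-epidermal junction. It had values of 8.07 and 8.10 in the controls against 7.49 and 7.76 in the induced arrays, a difference of -0.46 ± 0.12 (1.38-fold lower, limma adjusted p = 0.325). Col8a1, a short-chain network collagen known from vessels and the cornea, had values of 6.87 and 6.58 in the controls against 6.30 and 6.22 in the induced arrays. Its difference was -0.47 ± 0.13 (limma adjusted p = 0.338), and a second probe set stood at -0.44 ± 0.16, again with no overlap. As both induced values lay below both controls, leaving out an array could not change the direction of these 4 genes. Their differences then ran from -0.39 to -0.22 for Col7a1 and -0.32 to -0.23 for Col18a1. Those of Col16a1 ran from -0.60 to -0.33 and those of Col8a1 from -0.62 to -0.32. Without induced replicate 1 the differences of the 4 genes were -0.39, -0.32, -0.33 and -0.51 in that order. The last of the 5 lower genes, Col10a1, known from hypertrophic cartilage, had 4.35 and 4.64 in the controls against 4.27 and 4.26 in the induced arrays, close to the filter level.

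The promoter windows of Col7a1, Col8a1 and Col16a1 are shown as those of the genes above that have a single RefSeq window and an unadjusted p under 0.05. Each runs from 250 bases before to 50 bases after the RefSeq start (GRCm38.p6), 5′ to 3′ on the gene's strand. Capitals mark matches, on either strand, to the GC box (GGGCGG), the CCAAT box (CCAAT), the TATA box (TATAAA) or the AP-1 site (TGANTCA). The windows are chr9:108953336-108953635 (plus) for Col7a1, chr16:57754688-57754987 (minus) for Col8a1 and chr4:130047590-130047889 (plus) for Col16a1.
Col7a1: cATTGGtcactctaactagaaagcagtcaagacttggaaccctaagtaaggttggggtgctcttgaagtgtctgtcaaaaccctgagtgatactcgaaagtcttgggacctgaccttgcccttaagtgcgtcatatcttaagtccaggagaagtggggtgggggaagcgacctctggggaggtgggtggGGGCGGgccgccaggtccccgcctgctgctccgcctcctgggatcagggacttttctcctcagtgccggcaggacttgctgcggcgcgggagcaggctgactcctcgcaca
Col8a1: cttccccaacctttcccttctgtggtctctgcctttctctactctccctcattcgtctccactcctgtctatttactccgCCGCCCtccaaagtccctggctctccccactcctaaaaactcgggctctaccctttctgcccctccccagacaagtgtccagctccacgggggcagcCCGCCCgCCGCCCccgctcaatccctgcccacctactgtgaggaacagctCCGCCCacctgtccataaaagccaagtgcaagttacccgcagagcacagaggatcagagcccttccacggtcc
Col16a1: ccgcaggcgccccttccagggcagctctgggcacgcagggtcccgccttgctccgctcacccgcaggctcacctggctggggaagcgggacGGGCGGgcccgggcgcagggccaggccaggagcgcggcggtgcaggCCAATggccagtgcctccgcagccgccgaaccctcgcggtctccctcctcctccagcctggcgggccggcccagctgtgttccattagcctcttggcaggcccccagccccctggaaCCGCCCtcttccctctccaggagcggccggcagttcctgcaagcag

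The GC box was found 1 time in the Col7a1 window, 4 times in that of Col8a1 and 2 times in that of Col16a1. Col7a1 and Col16a1 each held 1 CCAAT box and Col8a1 held 0, and none of the 3 held the TATA or AP-1 letters. Of the other genes lower on both induced arrays, Col18a1 has 2 windows, with 3 GC boxes and 1 CCAAT box in one and 0 matches to any motif in the other, and Col10a1 held 0 GC boxes and 1 TATA box. Over all 32851 promoter windows of this length, 35.7% held a GC box, 37.4% a CCAAT box, 13.6% a TATA box and 7.81% an AP-1 site. RefSeq windows were found for 32 of the 41 collagen genes (35 windows), of which 22 windows held a GC box and 12 a CCAAT box. A match is a description of the letters and not evidence of binding.

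**Figure D2:**
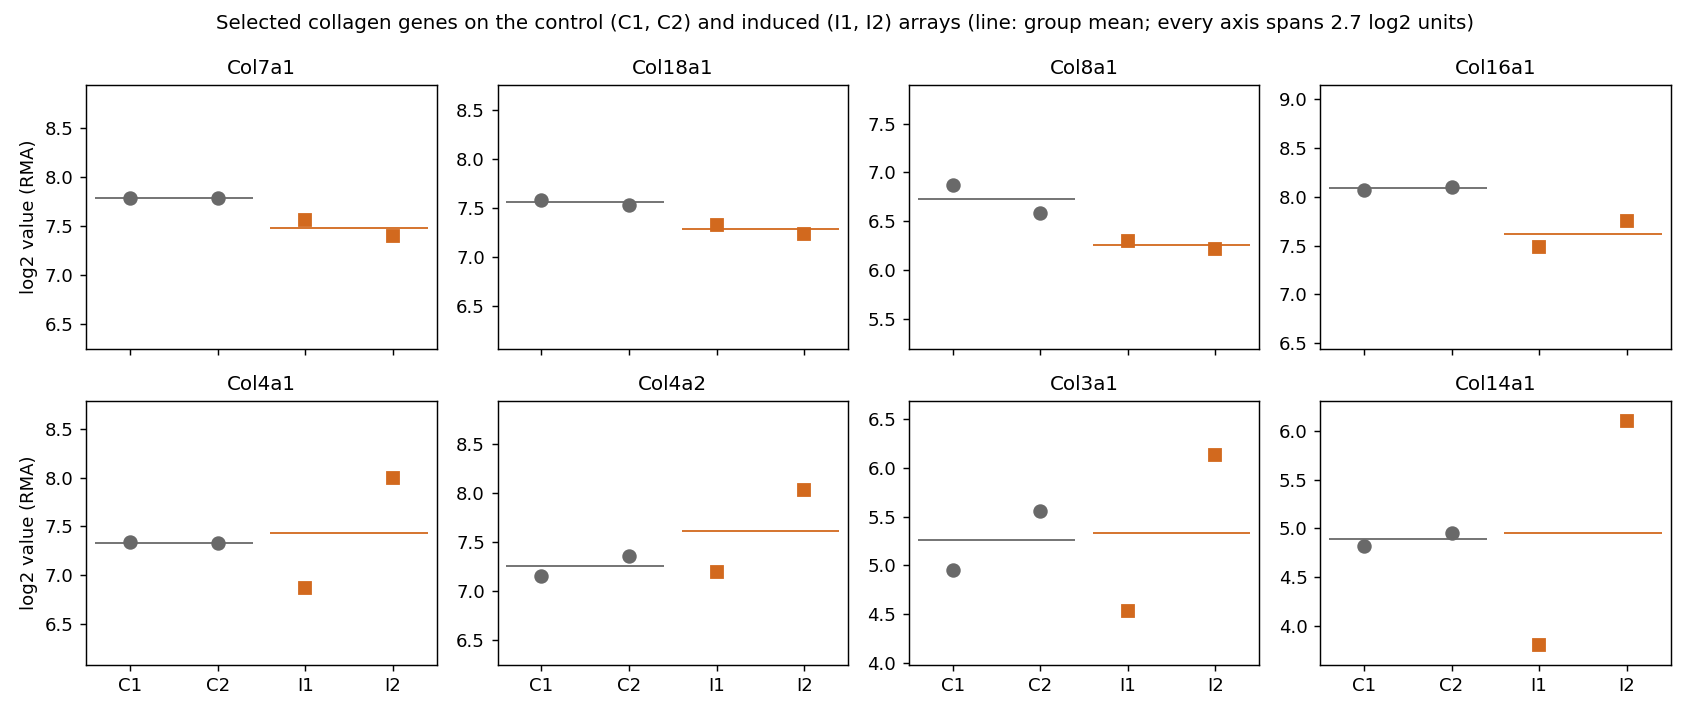
Log2 RMA values (y axis, each spanning the same range) of 8 collagen genes on control arrays C1 and C2 and induced arrays I1 and I2, with lines at the group means. In the upper row both induced values lie below both controls; in the lower row the induced arrays lie apart from each other, with Col14a1 at 3.81 (below the filter level) on I1 and 6.10 on I2.

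Type IV collagen, the network of every basement membrane, was not uniform over the arrays. Col4a1 and Col4a2, the ubiquitous chains, had their highest values on induced replicate 2. Col4a1 had 7.34 and 7.33 in the controls, 6.87 on induced replicate 1 and 8.00 on induced replicate 2. Col4a2 had 7.15 and 7.36 in the controls against 7.19 and 8.04 in the induced arrays. The groups overlapped for both genes, and the differences were 0.10 ± 0.34 and 0.36 ± 0.27 (limma adjusted p = 0.970 and 0.735). Without induced replicate 2 they were -0.46 and -0.06, and without induced replicate 1 they were 0.66 and 0.78. A second, dimmer probe set of Col4a1 did not show the gap, with 6.26 and 6.25 in the controls against 6.33 and 6.47 in the induced arrays.

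Col4a1 and Col4a2 lie head to head, and their promoter windows are shown because both genes were highest on induced replicate 2. On induced replicate 1 they differed, Col4a1 being below both controls and Col4a2 between them. The windows are chr8:11312777-11313076 (minus strand) for Col4a1 and chr8:11312555-11312854 (plus strand) for Col4a2 in GRCm38.p6, each printed 5′ to 3′ on its gene's strand. Capitals mark the 78 bases that both windows hold, which appear in the second as the reverse complement of the first.
Col4a1: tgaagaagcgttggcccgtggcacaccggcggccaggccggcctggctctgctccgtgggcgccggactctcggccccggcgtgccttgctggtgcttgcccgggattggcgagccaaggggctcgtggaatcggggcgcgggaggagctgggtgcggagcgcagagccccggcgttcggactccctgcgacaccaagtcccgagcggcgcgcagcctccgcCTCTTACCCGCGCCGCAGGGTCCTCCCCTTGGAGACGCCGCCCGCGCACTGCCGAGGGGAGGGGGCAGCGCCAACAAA
Col4a2: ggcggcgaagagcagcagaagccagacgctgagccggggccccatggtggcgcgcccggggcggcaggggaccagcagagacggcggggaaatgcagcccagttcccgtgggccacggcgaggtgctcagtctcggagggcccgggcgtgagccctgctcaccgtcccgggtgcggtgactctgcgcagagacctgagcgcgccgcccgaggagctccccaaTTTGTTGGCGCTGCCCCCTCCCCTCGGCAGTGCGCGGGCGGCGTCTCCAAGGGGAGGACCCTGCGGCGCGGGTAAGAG

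The Col4a1 window held 1 GC box and 1 CCAAT box, and that of Col4a2 held 3 and 1. G and C made up 74.0% and 73.7% of the bases.

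Col4a5 and Col4a6 encode the chains of the epidermal and smooth muscle type IV networks and are likewise a head-to-head pair, on the X chromosome. Col4a5 was nearly level over the arrays, at 8.84 and 8.70 in the controls against 8.86 and 8.85 in the induced arrays, a difference of 0.09 ± 0.10. Col4a6 had 6.25 and 6.32 in the controls against 6.41 and 6.57 in the induced arrays, a difference of 0.20 ± 0.11 (limma adjusted p = 0.601). Its second probe set stood at 0.18 ± 0.10, and both probe sets had groups that did not overlap. The second probe set of Col4a5 overlapped (0.01 ± 0.11). Both genes are X-linked and induced replicate 1 differs in sex from the other arrays, and the part of this in their values was not tested. The value of induced replicate 1 was 8.86 for Col4a5 against 8.70 to 8.85 on the others. Without that array the differences were 0.09 for Col4a5 and 0.29 for Col4a6. Col15a1, a basement membrane zone proteoglycan known from vessels and muscle, completed the class at -0.01 ± 0.12.

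The fibrillar collagens differed more between the induced arrays than between the groups. The groups overlapped for 7 of 7 genes (groups that did not overlap made up 39.4% of all genes), the median difference was -0.08, and individual differences ran from -0.26 (Col2a1) to 0.08 (Col3a1). On each array, the class level was taken as the median over its genes of the log2 value minus that gene's mean over the 4 arrays. It was 0.01 and 0.17 in the controls, -0.30 on induced replicate 1 and 0.16 on induced replicate 2. Induced replicate 1 was the lowest array for 5 of the 7 genes, where 26.4% of all genes had their lowest value there. Induced replicate 2 was above induced replicate 1 for 6 of the 7, where 53.3% of all genes were. The median difference of the class depended on these arrays, being -0.39 without induced replicate 2 and 0.15 without induced replicate 1.

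**Figure D3:**
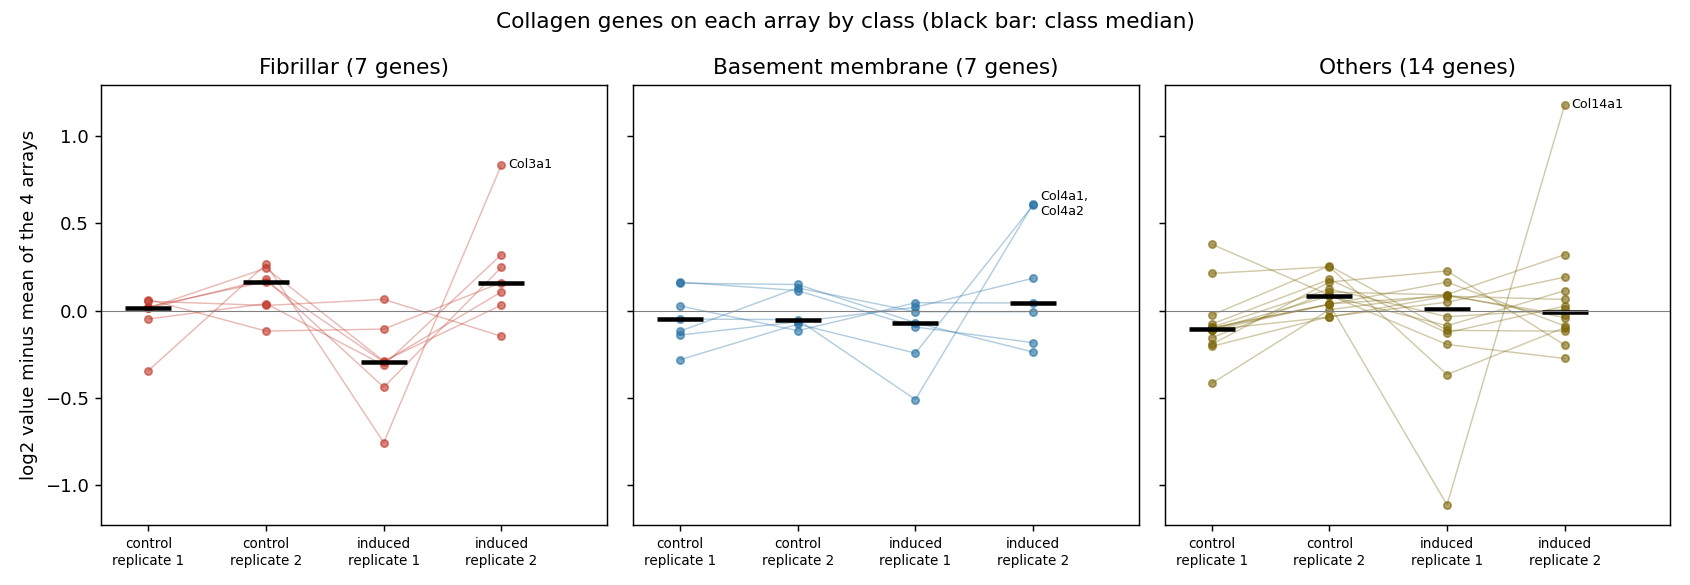
Log2 value minus the gene's mean over the 4 arrays (y axis) for each collagen gene on each array, by class; thin lines join the values of a gene and black bars are class medians. Fibrillar genes lie low on induced replicate 1 (median -0.30), and Col3a1, Col4a1, Col4a2 and Col14a1 are the genes farthest above their means on induced replicate 2.

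Col3a1, the type III chain of fetal and neonatal dermis, had 4.95 and 5.56 in the controls, 4.54 on induced replicate 1 and 6.13 on induced replicate 2. Its mean difference of 0.08 ± 0.51 (limma adjusted p = 0.987) therefore describes neither induced array, and it was -0.72 without induced replicate 2 and 0.87 without induced replicate 1. A dimmer probe set of Col3a1 did not pass the filter (2.89 and 3.05 in the induced arrays). Col5a1, which regulates fibril diameter, had 6.24 and 6.41 in the controls against 5.79 and 6.48 in the induced arrays. Among its dimmer probe sets that passed the filter, 1 gave the same order of the induced arrays (4.08 and 4.98) and 1 the opposite (4.30 and 3.91), each with an induced value below the filter level. Col1a2, the second chain of type I, had 5.29 and 5.43 in the controls against 4.97 and 5.38 in the induced arrays. Col27a1, a fibrillar chain known from cartilage, had 6.70 and 6.79 in the controls against 6.44 and 7.07 in the induced arrays, and its second probe set had the same order. Its difference was 0.33 without induced replicate 1. Col5a2, the partner chain of Col5a1, varied less, at 7.09 and 6.91 against 6.92 and 7.19. Col2a1 (4.51 and 4.74 against 4.21 and 4.53) and Col11a2 (4.65 and 4.63 against 4.66 and 4.45), cartilage chains, lay near the filter level, and Col11a2 was the 1 fibrillar gene that was lower on induced replicate 2 than on induced replicate 1.

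Among the other collagens, Col14a1 had the widest spread. It encodes a collagen that associates with fibrils and is made by dermal and follicular mesenchyme, and its values were 4.82 and 4.96 in the controls, 3.81 on induced replicate 1 and 6.10 on induced replicate 2. The value of induced replicate 1 lies below the filter level, so induced replicate 2 is given as at least 3.82-fold higher, measured from that level. The group means differed by 0.07 ± 0.68 (limma adjusted p = 0.992). Without induced replicate 2 the value below the filter level is the induced group, and the controls lay at least 0.72 above it. Without induced replicate 1 the difference was 1.21. The dimmer probe sets of Col14a1 did not pass the filter, with 3.78 and 4.09, or 3.21 and 3.28, on the induced arrays. Col12a1, its closest relative by domain structure, had 6.53 and 6.72 in the controls against 6.55 and 6.75 in the induced arrays, with no such gap.

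The type VI chains, which form beaded filaments around cells, had higher means in the induced arrays in all 3 genes that passed the filter. Col6a3 had 5.35 and 5.78 in the controls against 5.86 and 6.09 in the induced arrays, a difference of 0.41 ± 0.17 (1.33-fold higher, limma adjusted p = 0.501). It ranged from 0.20 to 0.62 when each array was left out. Col6a2 had 6.18 and 6.25 against 6.37 and 6.35, a difference of 0.15 ± 0.10, but its second probe set overlapped at -0.06 ± 0.11. Col6a1 had 4.49 and 4.75 against 4.73 and 4.60, with overlapping groups. Col22a1, known from tissue junctions, had 4.45 and 4.62 against 4.70 and 4.84, and its second probe set had the opposite direction (-0.17 ± 0.10), so its direction is uncertain. The remaining genes of this class that passed the filter, Col9a1, Col9a3, Col19a1, Col20a1 and Col25a1, had overlapping groups and differences from -0.10 to 0.08. The class median was 0.04.

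The gap between the induced replicates was large relative to the table for a few collagens. Of 13489 genes only 28 (0.208%) were at least 2-fold higher on induced replicate 2 than on induced replicate 1, and 3 of these were among the 28 collagens tested, namely Col14a1 (at least 3.82-fold, from the filter level), Col3a1 (3.02-fold) and Col4a1 (2.18-fold). This threshold was chosen after the values were seen. A further 5 genes were at least 2-fold lower on induced replicate 2, none of them a collagen, and 6 genes differed by 2-fold or more between the controls. The median absolute gap over all genes was 0.11 between the induced arrays and 0.12 between the controls. The typical gap was therefore similar in both groups, while 2-fold gaps were more frequent between the induced arrays. Col4a2 followed at 0.85 (1.80-fold), a gap that 0.46% of genes reached, and Col5a1 at 0.69, which 0.956% reached. Xist was another of the 28, and of the genes in the partner and marker lists they included Lamb1, a laminin chain of basement membranes, and Fstl1, a secreted glycoprotein of fibroblasts, which had 5.32 and 5.55 in the controls against 4.23 and 5.57. Outside these lists, the 28 held the matrix genes Abi3bp (log2 gap 1.54), Vcan (1.22), Bgn (1.09) and Hmcn1 (1.01). The 28 were not confined to matrix genes and also held Krt35 (2.05), Lhx2 (1.56), Shh (1.54), Lgr5 (1.39) and Gli1 (1.16).

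Markers of other cell types were read on the same arrays, since collagens can come from several of them. Of 17 dermal fibroblast markers on the array, collagens not among them, 11 passed the filter, 0 passed the test, and the median difference was -0.14. Lum, Dpt, Pdgfra, Ogn, Aspn and Cpxm1 did not pass the filter, and Pdgfra, the receptor that defines fibroblasts, had values of 3.67 to 3.88. Dcn, a small proteoglycan that binds fibrils, had the same order as Col3a1 on the induced arrays, with 8.23 and 8.04 in the controls against 7.57 and 8.42 in the induced arrays. Fn1 (6.50 and 6.60 against 6.63 and 7.37) was also highest on induced replicate 2, whereas Postn, which keratinocytes and fibroblasts can both express, was lowest there (11.4 and 11.4 against 11.3 and 10.8). Fbln2 had a difference of -0.35 ± 0.13. The median level of the 11 markers was -0.04 and 0.15 in the controls, -0.15 on induced replicate 1 and -0.01 on induced replicate 2. Induced replicate 1 was the lowest array for 5 of the 11 (background 26.4%). Induced replicate 2 was above induced replicate 1 for 6 of the 11, near the background of 53.3%. Their summed level, the log2 of the sum of the unlogged values, was 12.3 and 12.4 in the controls against 12.3 and 12.1 in the induced arrays. Postn and Vim (10.8 and 10.8 against 10.9 and 10.8), the brightest of the 11, made up most of this sum. Its fall on induced replicate 2 therefore follows Postn. The part of fibroblasts in the collagen values was not tested.

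Endothelial markers passed the filter for 4 of 10 genes, and Pecam1, Cdh5, Tek, Tie1, Emcn and Plvap did not, Pecam1 being at 2.81 to 3.42. The 4 had a median difference of -0.11 (Cldn5 -0.19 ± 0.10, Kdr -0.27 ± 0.16, Esam 0.07 ± 0.11) and summed levels of 7.54 and 7.60 in the controls against 7.46 and 7.52 in the induced arrays. On induced replicate 2, where Col4a1 and Col4a2 were highest, the median level of the 4 was -0.03, but they split. Egfl7, the brightest (6.52 and 6.46 in the controls against 6.34 and 6.58 in the induced arrays), and Esam were highest on that array. Cldn5 and Kdr were lowest there. Of 7 pericyte and smooth muscle markers 5 passed, with median levels of -0.14 and 0.02 in the controls, -0.15 on induced replicate 1 and 0.18 on induced replicate 2. Summed levels were 8.72 and 8.82 against 8.79 and 8.92, with Notch3 the largest part. Tagln, an actin-binding protein of smooth muscle, had 4.91 and 5.03 against 4.79 and 5.52, Notch3 differed by 0.15 ± 0.10 and Des by -0.12 ± 0.10, and Rgs5 and Myh11 did not pass the filter. The part of vascular cells in the type IV values was not tested.

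All 6 melanocyte markers were higher on induced replicate 2 than on induced replicate 1 (background 53.3%). Median levels were -0.12 and -0.06 in the controls against -0.24 and 0.37 in the induced arrays, and summed levels 12.0 and 12.0 against 11.9 and 12.5. Induced replicate 1 was the lowest array for 4 of the 6. Mitf (0.40 ± 0.13) and Tyr (0.18 ± 0.12) were higher on both induced arrays than on both controls (33.3% without overlap, against 39.4% of all genes). Without induced replicate 1 the median difference of the 6 markers was 0.47, against 0.0031 for all genes. Of the dermal papilla markers 2 of 8 passed the filter, with summed levels of 5.51 and 5.65 against 5.52 and 5.62. Corin, Sox2, Hhip, Rspo3 and Fgf10 were below the filter level on every array. Wif1, whose mean was also below it, had 3.46 and 3.79 in the controls against 3.14 and 5.53 in the induced arrays. The 5 immune markers ran the other way between the induced arrays, at median levels of 0.14 and -0.18 in the controls against 0.18 and -0.18 in the induced arrays, and summed levels of 12.0 and 11.5 against 11.9 and 11.5. Schwann cell markers passed for 2 of 4 genes, with summed levels of 7.89 and 7.93 against 7.92 and 7.82, and adipocyte markers for 2 of 4 (Fabp4 and Lpl, which are not confined to fat cells), with 8.88 and 8.99 against 9.51 and 9.46, while Adipoq did not pass. These genes ran in opposite directions. Fabp4, a fatty acid binding protein, had 7.87 and 8.21 in the controls against 9.24 and 9.01 in the induced arrays (1.08 ± 0.15, limma adjusted p = 0.173). Lpl, lipoprotein lipase, had 7.88 and 7.73 against 6.95 and 7.55 (-0.56 ± 0.20, limma adjusted p = 0.451). The 10 basal keratinocyte markers had median levels of 0.05 and 0.07 in the controls against -0.09 and -0.06 in the induced arrays, summed levels of 15.4 and 15.4 against 15.3 and 15.2, and a median difference of -0.12. Of these markers 7 had lower and 3 higher means. The groups did not overlap for 6 lower and 2 higher genes (80%, against 39.4% of all genes). The largest statistics were those of the lower genes Lama3 (-0.53 ± 0.12), Krt15 (-0.33 ± 0.10) and Trp63 (-0.30 ± 0.09). The 2 higher genes were Itga3 (0.26 ± 0.11) and Dst (0.25 ± 0.13). The part of these cell types in the collagen values was not tested.

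**Figure D4:**
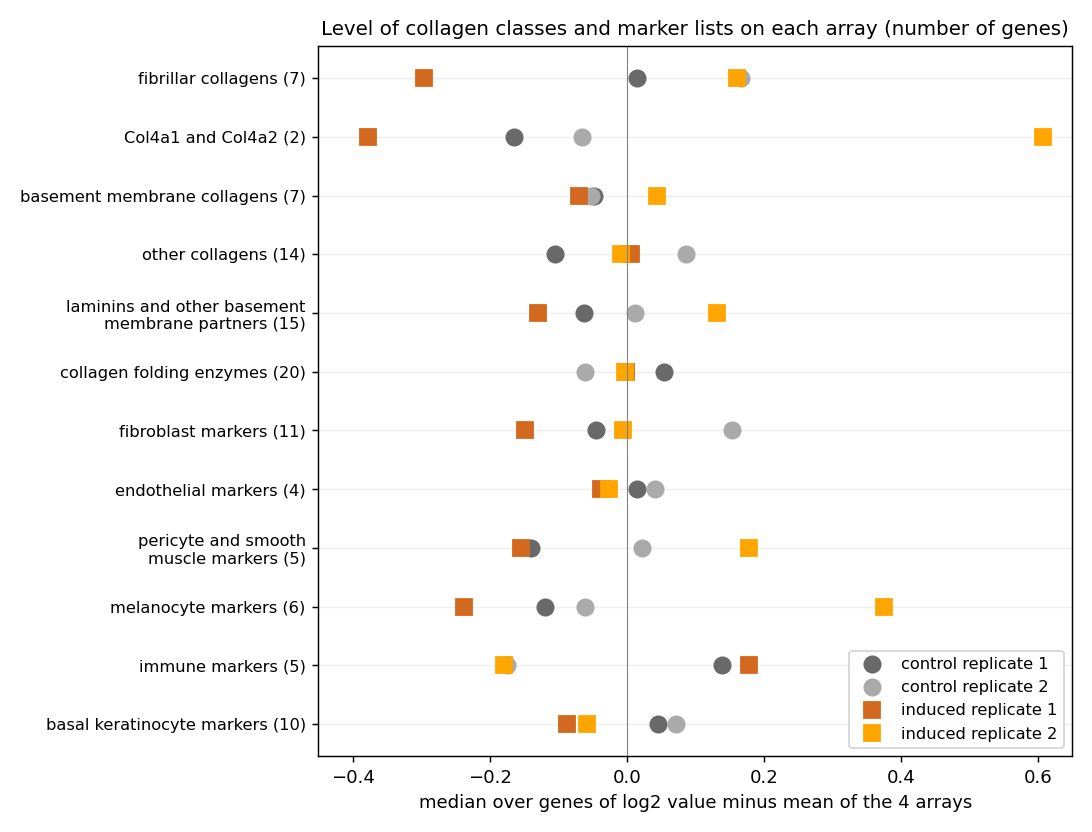
Median over genes of the log2 value minus the gene's mean over the 4 arrays (x axis) for collagen classes, partner genes and marker lists (number of genes in brackets) on each array. Col4a1 with Col4a2 lies at 0.61 on induced replicate 2 and -0.38 on induced replicate 1, the melanocyte markers have the same order, and the median of the basal keratinocyte markers lies lower on both induced arrays than on both controls.

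The partners of collagen in the basement membrane were compared gene by gene. Of 19 on the array 15 passed the filter and 0 passed the test, and the median difference was 0.04. The groups did not overlap for 2 higher genes and 1 lower gene, or 20% against 39.4% of all genes. On induced replicate 2, 12 of the 15 were above induced replicate 1 (background 53.3%). Lamb1 had 6.70 and 6.80 in the controls, 6.56 on induced replicate 1 and 7.72 on induced replicate 2, and Lamc1, its partner chain in most laminins, had 7.21 and 7.12 against 7.16 and 7.66; both were picked after their values were seen, as they too were highest on induced replicate 2. Without induced replicate 1 their differences were 0.97 and 0.49, and the median of the 15 was 0.17. Frem2 and Fras1, proteins of the epidermal basement membrane that form a complex with Frem1, had higher values on both induced arrays. Frem2 had 7.24 and 7.30 in the controls against 7.85 and 8.25 in the induced arrays, a difference of 0.78 ± 0.15 (1.71-fold higher, limma adjusted p = 0.216), and Fras1 differed by 0.26 ± 0.11. Lama3, a laminin alpha chain of the epidermis, had 9.17 and 9.28 against 8.57 and 8.83, a difference of -0.53 ± 0.12 (limma adjusted p = 0.285).

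Enzymes and chaperones that hydroxylate and fold collagen chains had a median difference of 0.00 over 20 genes, 0 of them past the test. The groups did not overlap for 4 higher and 4 lower genes (backgrounds 20.1% and 19.3%), a share of 40% against 39.4% of all genes. Those with the largest statistics were P4ha2 and P4ha1, catalytic subunits of prolyl 4-hydroxylase, which acts on the chains in the endoplasmic reticulum. P4ha1 had 7.04 and 6.77 in the controls against 6.53 and 6.51 in the induced arrays, a difference of -0.38 ± 0.12 (1.30-fold lower, limma adjusted p = 0.400). P4ha2 had 4.80 and 4.48 against 4.09 and 3.55, where the induced values lay below the filter level and no fold is given. Crtap, a subunit of the prolyl 3-hydroxylase complex, differed by 0.20 ± 0.10, and Serpinh1, the collagen chaperone HSP47, by -0.01 ± 0.10.

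Of 11 genes for propeptide cleavage, cross-linking and fibril assembly 6 passed the filter, and Lox, lysyl oxidase, did not. The median difference of the 6 was -0.07. Sparc, a matrix protein that binds collagen, had 10.0 and 9.83 in the controls against 9.53 and 9.55 in the induced arrays, a difference of -0.38 ± 0.11 (1.30-fold lower, limma adjusted p = 0.349), while Pcolce2 differed by 0.12 ± 0.12 and Loxl3 by -0.23 ± 0.24. Collagen receptors had a median of 0.02 over 7 genes. Mrc2, an endocytic receptor that takes up collagen fragments, had 5.83 and 5.81 against 5.33 and 5.04, a difference of -0.63 ± 0.13 (1.55-fold lower, limma adjusted p = 0.229). Ddr1, the epithelial collagen receptor kinase, had 9.54 and 9.55 against 9.78 and 9.86 (0.27 ± 0.10), Itga2, the integrin chain of keratinocytes that binds collagen, differed by 0.02 ± 0.19, and Itga1 by 0.36 ± 0.27. Genes of collagen breakdown had a median of 0.06 over 10 genes, and 3 lower and 2 higher genes (50%, against 39.4% of all genes) did not overlap. The gelatinase Mmp2 had 7.88 and 8.05 against 7.44 and 7.59 (-0.45 ± 0.11), cathepsin K (Ctsk) had 5.00 and 4.75 against 4.26 and 4.47 (-0.51 ± 0.13), and Adamts1 had 6.88 and 6.77 against 7.09 and 7.33 (0.39 ± 0.12). In these lists 0 genes passed the test, and no list is described as moving as a group.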

How the data were processed

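RNA of 4 samples, 0.5 ug each, was hybridised to an Affymetrix array per sample, per the labels. The table deposited by the authors holds log2 values made with RMA, per the submitters' processing notes (version and chip definition: not given in the sources used here). RMA quantile normalizes between arrays, which hides a change in the total RNA of a cell. Of 45101 probe sets 64 controls were left out. Names came from the platform annotation, updated through RefSeq gene identifiers (GRCm38) for 34741 of 34945 single-gene probe sets; 932 probe sets with several genes and 9160 not listed were unnamed. Probe sets with a mean at or above the 40th percentile were kept (27022). Groups were compared with limma 3.58.1 in R 4.3.3 (lmFit, eBayes, two-sided, Benjamini-Hochberg over the 27022), with 2 residual degrees of freedom, and the procedure was tested on simulated data. SE are on the log2 scale. The collagen genes, classes and lists were chosen with earlier results of these data known. Values on every array are given for 16 collagens fixed by name where kept, for the 4 per class with the largest statistic and for others where a result turns on them, and of each partner or marker list mainly the 3 genes with the largest statistic and 12 fixed genes are named. Summed levels of a list add probe sets of unequal sensitivity, follow its brightest genes and are compared only between arrays. Alternatives are listed in the closing section. The replicate numbers are not said to mark litters, so no block was used. The p-values set the group difference against the spread between these samples, whose separate animals are not stated. In limma this spread is moderated by a variance prior fitted over all kept probe sets, with 3.82 degrees of freedom. Unused columns of other samples numbered 0.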

Additional observations from a re-analysis of the deposited data

How the results depend on the processing

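The alternatives were a stricter or no filter on dim probe sets, quantile normalization once more, median centring, averaging the probe sets of a gene, another variance prior, the replicate block and leaving out each array. With the prior variance following the mean level and robust to outliers, 126 probe sets and 81 genes passed over the whole table, against 0 and 0, and 0 collagens among them. Of 233 repeats of the 20 named collagen differences, 218 kept their direction and side of the threshold and 15 changed direction, all on leaving out an array. The filter, variance prior and block settings cannot change a difference, so only its side of the threshold could change there. Collagens without overlap, 10 of 28 in the main setting, numbered 7 with probe sets averaged and 11 after quantile normalization once more. They numbered 8 of 16 with the stricter filter and 15 of 41 with no filter. Leaving out each array in turn gave 0 to 6 probe sets and 0 to 2 genes past the threshold, and 17 to 22 collagens without overlap against 10, since fewer arrays are compared. Class medians then ran from -0.39 to 0.15 (fibrillar), -0.064 to 0.10 (basement membrane) and -0.075 to 0.13 (others). Single genes ran from -0.19 to 0.023 (Col11a2), -0.074 to 0.13 (Col12a1), -1.08 to 1.21 (Col14a1), -0.39 to 0.013 (Col1a2), -0.72 to 0.87 (Col3a1), -0.46 to 0.66 (Col4a1), -0.064 to 0.78 (Col4a2), -0.54 to 0.15 (Col5a1), -0.079 to 0.19 (Col5a2) and -0.081 to 0.18 (Col6a1); the lowest value of Col14a1 rests on an array below the filter level. The lowest values came without induced replicate 2, except for Col6a1 (without control replicate 1) and Col11a2 (without induced replicate 1). The basement membrane median was -0.013 with no filter and 0.15 for type IV alone, against 0.09. With the replicate number as a block 0 collagens and 0 probe sets passed. The class medians stayed at -0.08, 0.09 and 0.04, as they must, since a block cannot change differences in this balanced layout. Same-numbered arrays deviated with a correlation of -0.10, and the crossed pairing, added after seeing the data, also gave 0 probe sets. Where leaving out an array left a group with 1, that array was taken to vary as the other group does. Dim genes near 4.17 limit what can be seen.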
